A study of Mus musculus with 6 samples.

Results

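Guidance genes encode the cues and receptors that steer growing axons, migrating cells and sprouting vessels. The genes described here are the protein-coding genes of the deposited table named as ephrins (Efna, Efnb), Eph receptors (Epha, Ephb), semaphorins of classes 3 to 7, plexins, neuropilins, netrins, the netrin receptors Unc5, Dcc and Neo1, Slits and Robo receptors. They were chosen by name and biotype alone, and 1 further class 3 semaphorin was left out by the rule. This gave 70 genes of the 49548 in the table, which holds 21960 protein-coding genes.

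The data are 3′ mRNA sequencing of cancer-associated fibroblasts (CAFs) from colonic adenomas. All mice carried Col6a1-cre and the Rosa26-mTmG reporter on the C57/BL6 strain and had received AOM, a carcinogen, with DSS, which injures the colon lining, to induce colitis-associated cancer. Cells negative for CD45, EpCAM, CD31 and Ter119 were sorted by reporter, giving 3 libraries from the GFP+ cells (Col6a1+ CAFs) and 3 from the Tomato+ cells (Col6a1- CAFs), and each sample was a pool of tumors from several mice, per the study. The mTmG reporter switches from Tomato to GFP after Cre recombination, so GFP marks cells, and the descendants of cells, in which the Col6a1 driver had been active, and both groups carry the same alleles and treatment. The study describes the cells targeted by this driver as mostly perivascular cells and PDGFRa-high fibroblasts.

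Ephrins are membrane-bound ligands of the Eph receptor tyrosine kinases, and contact between cells that carry them usually leads to repulsion or sorting. Semaphorins signal through plexins, with neuropilins as co-receptors for most class 3 members, while netrins act through Dcc, Neo1 and Unc5 receptors and Slits through Robo receptors. In the intestine, EphB receptors and ephrin-B ligands are known for keeping crypt and villus epithelial cells in place, and plexin D1, Unc5b and Robo4 are known from the vasculature.

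The sums of normalized counts, which are read counts that the authors adjusted between libraries, lay between 3039152 and 3425249 per library. Genes detected (above 0) numbered 18770 to 20511 in 5 libraries and 14530 in replicate 1 of the Col6a1+ CAFs, which stood apart. In that library 29 of the 70 guidance genes were at 0, against 11 to 13 in each of the others, and 13 guidance genes were at 0 there alone. The sums of the fibroblast markers (Col1a1, Col1a2, Col3a1, Dcn, Lum, Pdgfrb and Vim) were 41474 to 45489 in Col6a1+ CAFs and 8530 to 15537 in Col6a1- CAFs, and 4 of the 7 were called higher in Col6a1+ CAFs. One of those called was Pdgfrb, which the study also names as a pericyte marker. Its log2 fold change (Col6a1+ minus Col6a1- CAFs) was 4.28, and those of the other fibroblast markers were 0.56 to 2.50. The 8 markers of mural cells, the contractile cells around vessels, summed to 40406 to 89214 in Col6a1+ CAFs and 1089 to 2027 in Col6a1- CAFs, all 8 called higher, with Higd1b at 0 in every Col6a1- CAF library. The 10 epithelial markers summed to 5750 to 6474 in Col6a1+ CAFs and 20190 to 32330 in Col6a1- CAFs despite the EpCAM exclusion, with 7 of 10 called lower and no marker at 0 in any library. In such bulk samples, fewer cells of a type and less RNA per cell cannot be told apart.

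Of the 70 guidance genes, 6 (Slit1, Efna3, Epha6, Epha8, Epha10 and Dcc) were at 0 in every library, where a count of 0 allows up to 3 counts. The other 64 were tested with limma on the log2(normalized count + 1) values, and the adjusted p-values here are Benjamini-Hochberg values over all 26402 genes tested. At an adjusted p under 0.05, Col6a1+ CAFs had 8 guidance genes higher and 3 lower. That is 17.2% of the 64, where 4.62% of all genes tested were called in either direction (2.66% higher and 1.96% lower), and 8.82% of those whose mean reached 10 normalized counts. The 64 include genes below that mean, and all 11 calls were among the 46 that reached it. The genes called higher were Sema5b, Ntn4, Sema5a, Sema6d, Plxnd1, Unc5c, Unc5b and Sema4c, and those called lower were Robo4, Sema3e and Efna1. The 3 and 3 libraries did not overlap for 26 guidance genes (40.6%, where 19.5% of all genes tested did not overlap), 14 of them higher (7.91% of all genes) and 12 lower (11.6% of all genes) in Col6a1+ CAFs. The median log2 fold change of the 64 genes, as Col6a1+ minus Col6a1- CAFs throughout, was -0.33, and that of all genes tested was -0.27. With the 5 guidance genes that were at 0 throughout one group set at the bound that 3 counts allow, the median of the 64 was -0.08.

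These calls depend on how the libraries are treated. The study's figure legend counts 3 samples in all, each a pool, and there are 6 libraries. That would hold if each pool gave both a GFP+ and a Tomato+ library. Neither the legend nor the labels state which libraries share a pool, and the replicate numbers were taken as pairs for an alternative fit. The main fit has no block and treats the 6 libraries as independent. Once the replicate number was a block in the fit, no gene passed (0.0%), the called guidance genes having adjusted p-values of 0.0717 to 0.146. At an unadjusted p under 0.05 with the block, 12 guidance genes were higher and 10 lower, where 16.7% of all genes passed in either direction. With the block over genes whose mean reached 10, an alternative chosen after seeing the data, 11 guidance genes were called higher and 7 lower of the 46 that qualify, among them all 11 original calls. Of all such genes 13.7% were called, 7.26% higher and 6.44% lower. With limma-voom 8 guidance genes were called higher and 5 lower, where 5.94% of all genes were called (2.92% higher and 3.02% lower). Without replicate 1 of the Col6a1+ CAFs 5 guidance genes were called higher and 2 lower, where 3.42% of all genes were called (1.73% higher and 1.69% lower). In that fit 6 of the 11 calls held, without replicate 2 of that group 3 held, and without replicate 3 of that group or any 1 of the Col6a1- CAF libraries none held. The direction of all 11 was the same in each of these fits. For the fits that left out any library but replicate 1 of the Col6a1+ CAFs, the share of all genes called is not given here. Whether the loss of calls was particular to guidance genes was thus not tested. Without replicate 1 of the Col6a1- CAFs, the epithelial marker Epcam also missed the threshold (limma adjusted p = 0.0732), as did the other epithelial markers (0.058 to 0.659). Of the mural markers, Rgs5, Cspg4 and Notch3 passed it (0.0422 each) in that fit. The mural markers Mcam (0.114), Higd1b (0.0749), Ndufa4l2 (0.0717), Abcc9 (0.0515) and Kcnj8 (0.0503) missed it. The study describes each sample as a pool of tumors from several mice, and does not state whether any mice were shared between pools. The p-values therefore measure the spread between these libraries.

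**Figure D1:**
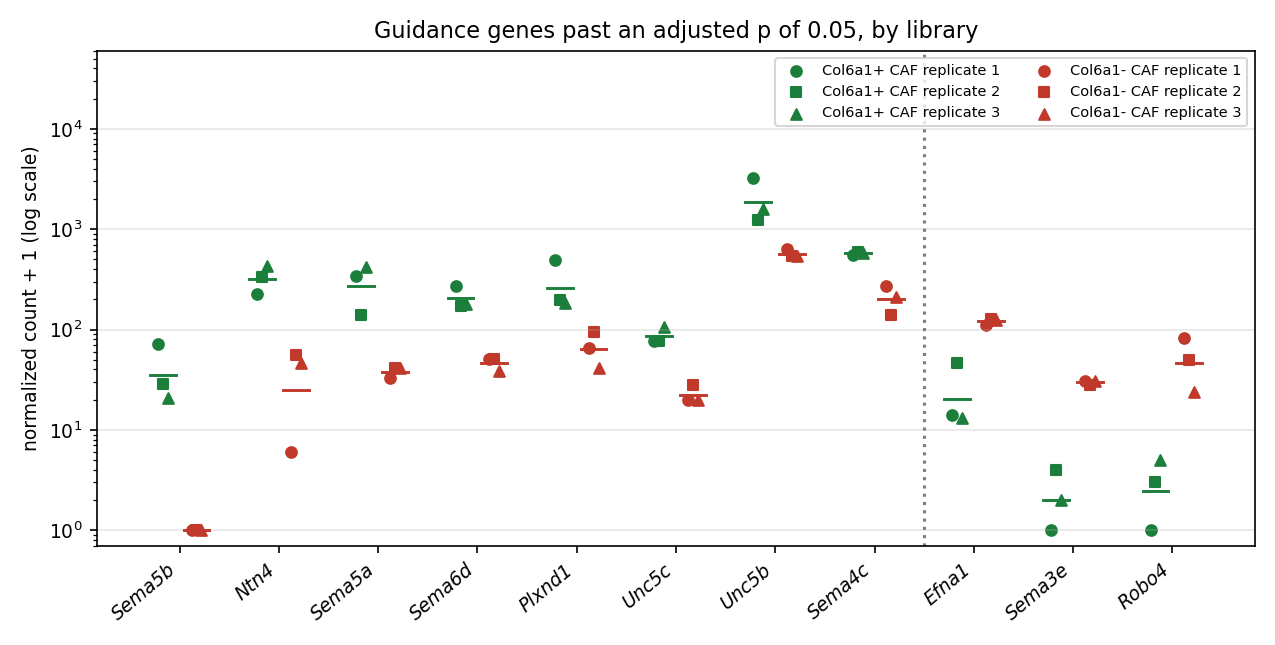
Normalized count plus 1 (log scale) in each of the 6 libraries for the 8 guidance genes called higher (left of the dotted line) and the 3 called lower in Col6a1+ CAFs; points are libraries, and bars are the means of the log values. For each of the 11 genes the 3 green Col6a1+ points lie entirely on one side of the 3 red Col6a1- points, with Sema5b at 0 counts in all Col6a1- CAF libraries.

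**Figure D2:**
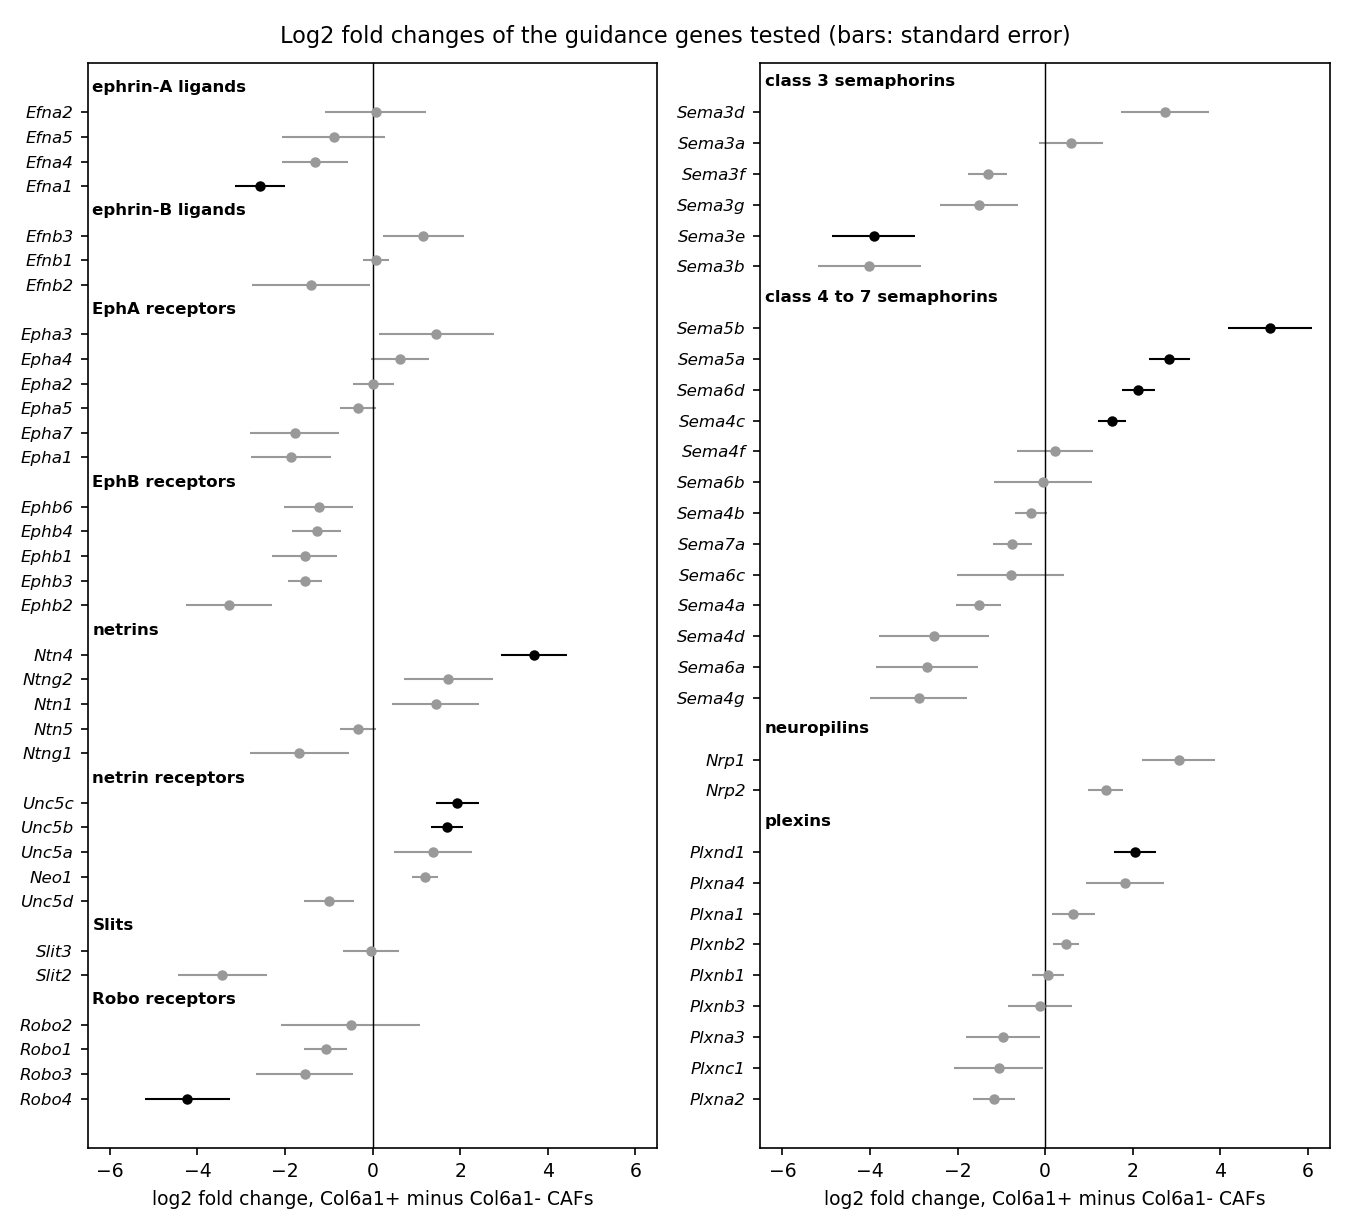
Log2 fold change (Col6a1+ minus Col6a1- CAFs) with its standard error for the 64 guidance genes tested, grouped by role; black marks an adjusted p under 0.05 and grey the rest. The 8 genes called higher lie among the netrins, netrin receptors, class 4 to 7 semaphorins and plexins, and all 5 EphB receptors lie left of 0 without passing the test.

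Promoter sequence is shown for 4 of the called genes whose RefSeq start coincides with the gene start in the deposited table, to show the composition of the sequence before them. Each run is the 250 bases before the start, 5′ to 3′ on the gene's strand, from RefSeq on GRCm38.p6, the patched release of mm10. Capitals mark the GC box, bound by Sp-family factors, whose letters are GGGCGG, and the E-box, whose letters are CACGTG. They also mark the core bound by RBPJ, the Notch pathway factor, whose letters are TGGGAA, and that bound by ETS factors, whose letters are AGGAAG, each searched on both strands, and neighbouring GC boxes can overlap. The TATA box, with the letters TATAAA, was searched too and was in none of the 4.
Sema5a (chr15:32244563-32244812, plus strand): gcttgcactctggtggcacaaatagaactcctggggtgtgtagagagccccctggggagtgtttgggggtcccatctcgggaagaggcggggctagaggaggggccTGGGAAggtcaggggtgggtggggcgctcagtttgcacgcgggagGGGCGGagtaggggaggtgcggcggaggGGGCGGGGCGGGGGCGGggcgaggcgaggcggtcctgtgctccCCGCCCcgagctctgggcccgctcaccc
Sema6d (chr2:124089719-124089968, plus strand): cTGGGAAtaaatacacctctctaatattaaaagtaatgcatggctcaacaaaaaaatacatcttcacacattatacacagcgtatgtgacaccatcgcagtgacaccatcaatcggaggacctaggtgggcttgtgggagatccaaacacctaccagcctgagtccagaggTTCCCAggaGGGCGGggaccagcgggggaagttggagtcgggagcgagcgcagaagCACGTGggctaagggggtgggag
Unc5b (chr10:60831582-60831831, minus strand): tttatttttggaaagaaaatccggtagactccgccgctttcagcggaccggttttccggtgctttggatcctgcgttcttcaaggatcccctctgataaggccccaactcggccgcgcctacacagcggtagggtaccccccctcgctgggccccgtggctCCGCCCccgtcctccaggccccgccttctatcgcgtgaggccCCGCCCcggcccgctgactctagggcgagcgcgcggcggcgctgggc
Sema3e (chr5:14025026-14025275, plus strand): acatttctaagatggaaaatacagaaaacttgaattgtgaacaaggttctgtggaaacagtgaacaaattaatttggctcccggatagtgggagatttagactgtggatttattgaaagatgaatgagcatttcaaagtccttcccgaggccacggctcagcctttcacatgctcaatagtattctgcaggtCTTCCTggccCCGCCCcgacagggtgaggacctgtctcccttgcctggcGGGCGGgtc
The Sema5a window, in which 72.0% of bases were G or C, held 5 GC boxes and 1 TGGGAA, and the Unc5b window held 2 GC boxes. The Sema6d window held 1 GC box, 1 CACGTG and 2 TGGGAA, and the Sema3e window held 2 GC boxes and 1 AGGAAG. Of the guidance genes, 60 matched a RefSeq promoter, giving 76 windows, and 53 of these (69.7%) held the GC box, compared with 42.6% of the 21263 windows of protein-coding genes and 32.7% of all 32851 windows. TATAAA was in 2 of the 76 (2.63%, against 11.6% for protein-coding genes), CACGTG in 5.26% (6.63%), TGGGAA in 17.1% (20.9%) and AGGAAG in 32.9% (28.5%). The GC box was present before Sema3e and Efna1, called lower, as well as before Sema5a, Unc5b, Sema6d, Ntn4, Plxnd1 and Sema4c, called higher. It was absent from the windows of Robo4, called lower, and of Unc5c and Sema5b, called higher, and from a further window of Sema6d. These matches describe letters and are not binding sites.

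Among netrins and their receptors, 1 of 5 ligands and 2 of 5 receptors tested were called higher in Col6a1+ CAFs, where 2.66% of all genes tested were, and none was called lower. Ntn4 encodes netrin-4, a laminin-related protein of basement membranes (ENSMUSG00000020019, mm10 chr10:93640681-93747207). It had 223, 333 and 433 normalized counts in Col6a1+ CAFs and 5, 55 and 45 in Col6a1- CAFs, a mean of 329.7 ± 105 against 35 ± 26.5 (SD, n = 3 each). All Col6a1+ libraries were above all Col6a1- libraries, and replicate 1 was the lowest of its group on both sides. The log2 fold change was 3.68 ± 0.75 (SE), with an adjusted p of 0.0209 in limma and 0.0835 with the replicate block. Without replicate 1 of the Col6a1- CAFs, which held 5 counts, the fold change was 2.65. A processed pseudogene on the opposite strand, Gm8580, overlaps Ntn4 and had 26 to 70 counts per library, and the sources used here do not state whether counting used strand.

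The other netrins were low or varied within groups. Ntn1, which encodes the classical secreted netrin, had 0, 9 and 5 counts in Col6a1+ CAFs and 2, 0 and 0 in Col6a1- CAFs, and Ntn5 had 1 count in a single Col6a1- library. The membrane-anchored netrin-G genes gave 32, 45 and 12 against 1, 17 and 14 counts for Ntng2 and 0, 5 and 8 against 9, 6 and 24 for Ntng1. The groups overlapped for each of these 4 genes, which are named here after their values were seen.

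Unc5b, a repulsive netrin receptor known from sprouting endothelium (ENSMUSG00000020099, chr10:60762610-60831581), had 3248, 1234 and 1588 normalized counts in Col6a1+ CAFs and 629, 535 and 545 in Col6a1- CAFs (2023 ± 1075 against 569.7 ± 51.6, SD, n = 3 each). The Col6a1- libraries lay close together, while replicate 1 of the Col6a1+ CAFs held about as much as the other Col6a1+ libraries together. The log2 fold change was 1.70 ± 0.36 (SE, limma adjusted p = 0.0242, with the block 0.0875), and without that replicate it was 1.30. Unc5c, of the same family (ENSMUSG00000059921, chr3:141465216-141834924), had 76, 76 and 105 counts against 19, 27 and 19. Its log2 fold change was 1.94 ± 0.48 (limma adjusted p = 0.0464, with the block 0.117), the closest to the threshold of the 11, and it ranged from 0.0279 to 0.194 over the alternatives, missing the threshold with library size scaling (0.0503) and with limma-voom (0.0577).

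Neo1 (neogenin), a receptor for netrins and repulsive guidance molecules, had 673, 708 and 540 counts in Col6a1+ CAFs and 293, 345 and 214 in Col6a1- CAFs. The groups were separate, with a log2 fold change of 1.19 ± 0.30 (SE) and a limma adjusted p of 0.0513, just above the threshold. Over the alternatives it ranged from 0.0168 to 0.183, and it was 0.0869 with the block. Dcc, the attractive netrin receptor, was at 0 in all 6 libraries and Unc5d had 1 and 3 counts in a pair of Col6a1- libraries and 0 elsewhere, so a difference was not detectable at this depth. Summed over the netrin receptors, the libraries held 4010, 2064 and 2310 normalized counts in Col6a1+ CAFs and 968, 928 and 785 in Col6a1- CAFs. The sum of the mural markers moved in the same direction, and its part in these differences was not tested.

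**Figure D3:**
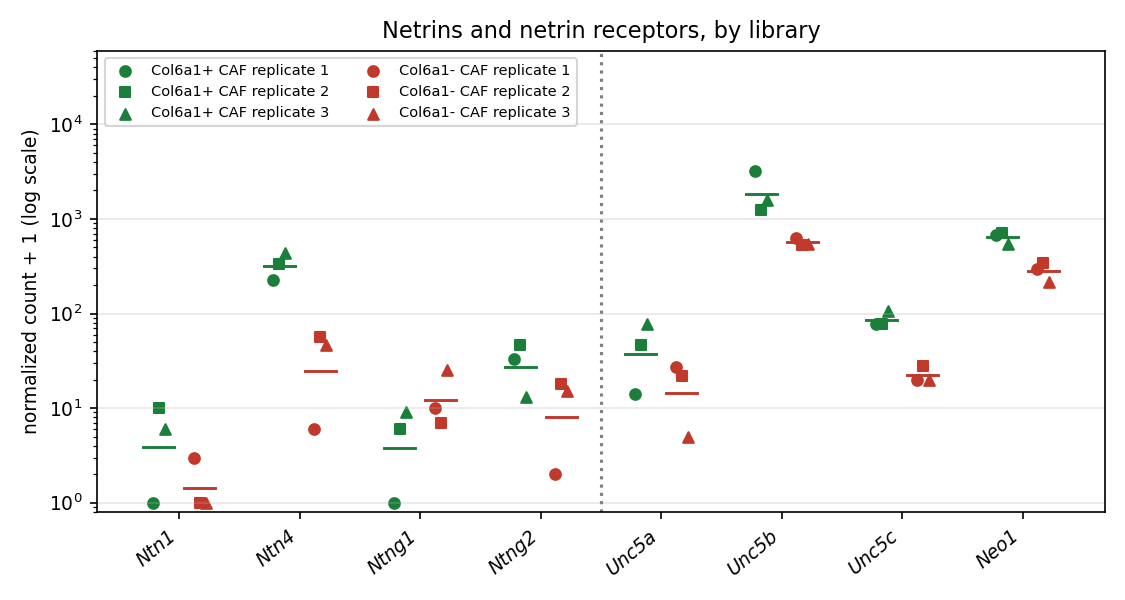
Normalized count plus 1 (log scale) in each library for 4 netrins (left of the dotted line) and 4 netrin receptors; points are libraries, green for Col6a1+ and red for Col6a1- CAFs, and bars are the means of the log values. Ntn4, Unc5b, Unc5c and Neo1 are separate between the groups, while the other 4 genes overlap.

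Of the 13 semaphorins of classes 4 to 7, which are bound to the membrane, 4 were called higher in Col6a1+ CAFs (2.66% of all genes tested) and none lower, although 8 of the 13 log2 fold changes were below 0. Both class 5 members, transmembrane proteins with thrombospondin repeats that can attract or repel axons, were among those called. Sema5a (ENSMUSG00000022231, chr15:32244813-32696341) had 340, 140 and 423 normalized counts in Col6a1+ CAFs and 32, 40 and 40 in Col6a1- CAFs. Its means were 301 ± 145 and 37.3 ± 4.62 (SD, n = 3 each), with a log2 fold change of 2.84 ± 0.46 (SE, limma adjusted p = 0.00718, with the block 0.0781). This was the lowest adjusted p among the guidance genes.

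Sema5b (ENSMUSG00000052133, chr16:35541145-35664732) had 71, 28 and 20 counts in Col6a1+ CAFs and 0 in every Col6a1- library. Against the 3 counts that 0 allows in each library, the Col6a1+ mean was at least 13.2-fold higher, a bound that covers counting error only. Replicate 1 raised it, and without that library it was 8.0-fold, a value computed after seeing the data. The limma adjusted p was 0.0136 and 0.0765 with the block. A processed pseudogene on the opposite strand, Gm5963, overlaps Sema5b and had 1619 to 3038 counts per library, and it had 2580 to 2821 counts in the Col6a1- libraries, where Sema5b was at 0.

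Sema6d, a ligand of plexin A receptors (ENSMUSG00000027200, chr2:124089969-124667770), had 273, 170 and 180 normalized counts in Col6a1+ CAFs against 50, 50 and 38 in Col6a1- CAFs. The log2 fold change was 2.13 ± 0.38 (SE, limma adjusted p = 0.0118, with the block 0.0717), and it lay between 1.92 and 2.26 when each library was left out. Sema4c, a ligand of plexin B2 (ENSMUSG00000026121, chr1:36548639-36558349), had 548, 589 and 583 counts against 272, 139 and 211. The Col6a1+ libraries agree within 22.1 counts (SD) of a mean of 573, and the log2 fold change was 1.52 ± 0.32 (SE, limma adjusted p = 0.0244, with the block 0.105). Plxnb2, its receptor, had 206, 229 and 214 counts in Col6a1+ CAFs and 139, 160 and 166 in Col6a1- CAFs, separate but with a log2 fold change of 0.48 (95% interval -0.19 to 1.15, limma adjusted p = 0.498).

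Other membrane semaphorins were lower in the Col6a1+ libraries without passing the test. Sema4g had 0, 14 and 17 counts against 29, 78 and 45 in Col6a1- CAFs (log2 fold change -2.89, limma adjusted p = 0.206), and Sema6a had 0, 40 and 12 against 65, 42 and 50 (-2.70, adjusted p = 0.286). For both, the 0 belonged to replicate 1 of the Col6a1+ CAFs, and without it the log2 fold changes were -1.54 and -1.19. Sema4a, named after its values were seen, had 187, 107 and 103 counts in Col6a1+ CAFs and 812, 330 and 186 in Col6a1- CAFs, where the highest Col6a1+ library was 1 count above the lowest Col6a1- library. Its limma adjusted p was 0.139, and the alternatives gave 0.0204 to 0.653.

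The secreted class 3 semaphorins and their receptors did not share a direction. Of the 6 ligands tested 1 was called lower (1.96% of all genes tested) and 4 had log2 fold changes below 0, while Plxnd1 was called higher and both neuropilins were higher in every Col6a1+ library. Sema3e, the ligand that binds plexin D1 directly (ENSMUSG00000063531, chr5:14025276-14256689), had 0, 3 and 1 normalized counts in Col6a1+ CAFs and 30, 27 and 30 in Col6a1- CAFs. The log2 fold change was -3.91 ± 0.95 (SE, limma adjusted p = 0.0437, with the block 0.115), on a scale that understates changes of genes this low. Plxnd1, the receptor (ENSMUSG00000030123, chr6:115954811-115995005), had 492, 197 and 184 counts in Col6a1+ CAFs and 65, 93 and 40 in Col6a1- CAFs. Its log2 fold change was 2.05 ± 0.48 (SE, limma adjusted p = 0.0374, with the block 0.12) and 1.59 without replicate 1 of the Col6a1+ CAFs, its highest library.

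Nrp1, a co-receptor for class 3 semaphorins and VEGF, had 83, 426 and 355 counts in Col6a1+ CAFs and 7, 69 and 39 in Col6a1- CAFs. Replicate 1 was the lowest on both sides, and the log2 fold change of 3.05 ± 0.83 (SE) had a limma adjusted p of 0.0674 and of 0.0612 with the block. The latter was the smallest value in that fit, and a tie with other genes, such as the markers Pdgfrb and Rgs5. Over the alternatives the adjusted p ranged from 0.00311 to 0.513. Nrp2, known for binding Sema3f, had 1127, 421 and 438 counts against 276, 187 and 226, a log2 fold change of 1.38 ± 0.40 (SE, limma adjusted p = 0.089). Together the neuropilins held 1210, 847 and 793 counts in the Col6a1+ libraries and 283, 256 and 265 in the Col6a1- libraries.

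Of the other class 3 ligands, Sema3b had 0, 55 and 21 counts in Col6a1+ CAFs and 194, 151 and 172 in Col6a1- CAFs. Its log2 fold change was -4.01 ± 1.18 (SE, limma adjusted p = 0.0912), and -2.30 without replicate 1 of the Col6a1+ CAFs, with adjusted p-values of 0.0424 to 0.627 over the alternatives. Sema3f, a ligand of neuropilin 2, had 76, 200 and 100 counts against 364, 186 and 350 and overlapped between the groups (log2 fold change -1.31, adjusted p = 0.14). Sema3g was low, with 3, 3 and 5 counts against 9, 14 and 14 (log2 fold change -1.52, adjusted p = 0.455). Sema3d ran the other way, with 24, 14 and 15 counts in Col6a1+ CAFs and 0, 3 and 4 in Col6a1- CAFs (log2 fold change 2.74, adjusted p = 0.185). Sema3a, named after its values were seen, had 59, 14 and 19 counts against 20, 17 and 13. Summed over the 6 ligands, the Col6a1+ libraries held 162, 289 and 161 counts and the Col6a1- libraries 617, 398 and 583.

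Plexins other than Plxnd1 were not called. Plxna2, a receptor for class 6 semaphorins and, with neuropilins, for class 3, had 41, 55 and 43 counts in Col6a1+ CAFs and 103, 62 and 179 in Col6a1- CAFs, separate, with a log2 fold change of -1.17 and a limma adjusted p of 0.244. Of the 9 plexins tested, 5 had log2 fold changes above 0 and 4 below, and the libraries were separate for 3 that were higher and 1 that was lower in Col6a1+ CAFs.

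**Figure D4:**
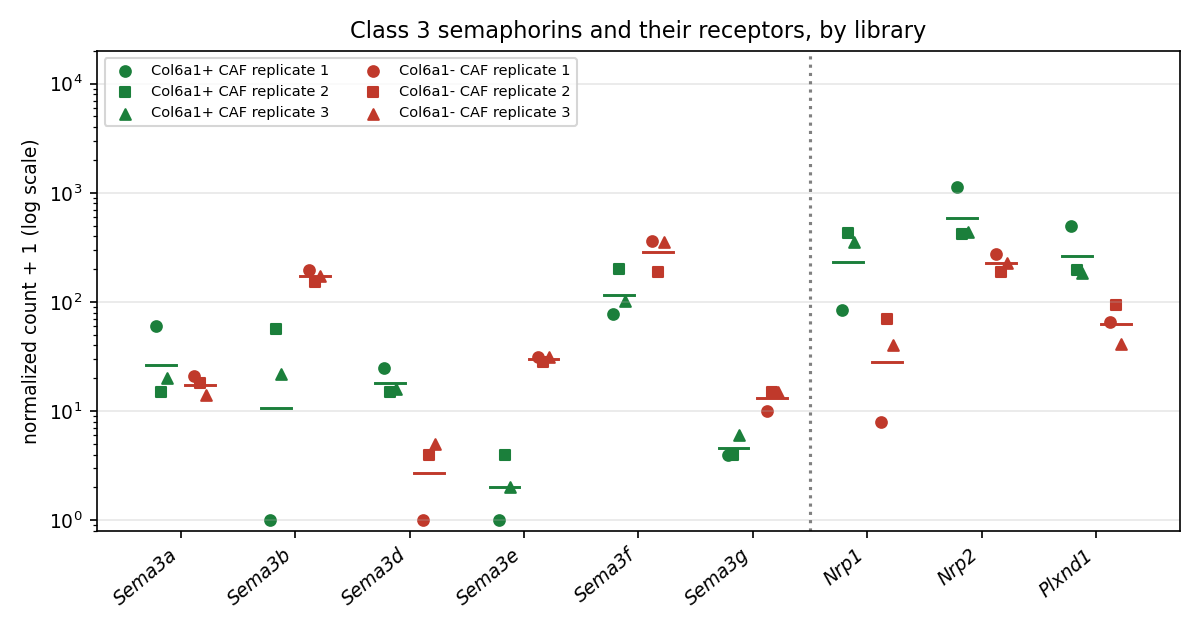
Normalized count plus 1 (log scale) in each library for the 6 class 3 semaphorins (left of the dotted line) and for Nrp1, Nrp2 and Plxnd1; points are libraries, green for Col6a1+ and red for Col6a1- CAFs, and bars are the means of the log values. The green points of Sema3e and Sema3b lie below the red ones, whereas those of all 3 receptor genes lie above them.

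Among Slits and Robo receptors, 1 of 6 genes tested was called, lower in Col6a1+ CAFs, where 1.96% of all genes tested were called lower. Robo4, the endothelial member of the Robo family (ENSMUSG00000032125, chr9:37401897-37415115), had 0, 2 and 4 counts in Col6a1+ CAFs and 81, 49 and 23 in Col6a1- CAFs. The log2 fold change was -4.23 ± 0.97 (SE, limma adjusted p = 0.0345, with the block 0.146), and it was -3.58 (0.0514, in a range of 0.0206 to 0.17 over the alternatives) without replicate 1 of the Col6a1+ CAFs. The sort excluded CD31+ cells. Summed over 9 endothelial markers, the libraries held 183 to 411 counts in Col6a1+ CAFs and 313 to 557 in Col6a1- CAFs, with 8 of 9 log2 fold changes below 0, none called lower and 1, Tie1, called higher. Pecam1, which encodes CD31, had 0, 21 and 27 counts against 13, 64 and 44, and Cdh5, the endothelial cadherin, had 10, 4 and 9 against 39, 24 and 24. In replicate 1 of the Col6a1+ CAFs 6 of the 9 endothelial markers were at 0, and no Col6a1- library had a marker at 0. The part of endothelial cells in the Robo4 difference was not tested.

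Slit2, a secreted Robo ligand, had 0, 1 and 4 counts in Col6a1+ CAFs and 12, 29 and 31 in Col6a1- CAFs. The groups were separate, and the log2 fold change of -3.43 ± 1.01 (SE) had an adjusted p of 0.0931 with limma on the log2 values and of 0.0356 (limma-voom) to 0.294 over the alternatives. Slit3, with 92, 41 and 29 counts against 73, 78 and 21, had a log2 fold change of -0.04 (95% interval -1.47 to 1.38), whose sign changed when single libraries were left out. Robo1, a Slit receptor, had 77, 104 and 44 counts against 194, 80 and 216 and overlapped between groups (log2 fold change -1.07, limma adjusted p = 0.323). Robo2, named after its values were seen, had 0, 121 and 140 counts in Col6a1+ CAFs and 46, 60 and 16 in Col6a1- CAFs. Its log2 fold change was -0.50 with all libraries and 1.84 without replicate 1 of the Col6a1+ CAFs, so its direction rests on that library. The same held, on lower counts, for Efnb2, Efna5, Sema6b and Sema6c among the 13 genes that were at 0 in that library alone. All 13 had log2 fold changes below 0 with it, and 8 had without it.

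Among ephrins and Eph receptors, 1 of 18 genes tested was called, lower in Col6a1+ CAFs. That share, 5.56%, is near the 4.62% of all genes tested that were called. Efna1, a ligand of EphA2 and other EphA receptors (ENSMUSG00000027954, chr3:89271733-89281142), had 13, 45 and 12 normalized counts in Col6a1+ CAFs and 110, 127 and 123 in Col6a1- CAFs. Its means were 23.3 ± 18.8 and 120 ± 8.89 (SD, n = 3 each), with a log2 fold change of -2.57 ± 0.57 (SE, limma adjusted p = 0.0299, with the block 0.109). Efna4 had 6, 8 and 11 counts against 21, 19 and 26, separate but not past the test (log2 fold change -1.32, adjusted p = 0.434). Epha2, the receptor, had 56, 66 and 47 counts against 35, 73 and 65 (log2 fold change 0.02, 95% interval -1.02 to 1.06, -0.03 with library size scaling). No EphA receptor was called, and 3 of the 9 were at 0 throughout.

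All 5 EphB receptors had log2 fold changes below 0, with none past the test and a median of -1.55. Ephb3, a receptor of the crypt base and a known target of Wnt signalling, had 141, 297 and 361 counts in Col6a1+ CAFs and 595, 658 and 979 in Col6a1- CAFs. Its log2 fold change was -1.55 ± 0.39 (SE) with a limma adjusted p of 0.0505, which ranged from 0.0102 to 0.319 over the alternatives. Ephb2, its close relative with the same known role, had 1, 38 and 33 counts against 137, 139 and 122. Its log2 fold change was -3.27 ± 0.98 (SE, limma adjusted p = 0.0972), and -1.87 without replicate 1 of the Col6a1+ CAFs, where the adjusted p was 0.0291, the lowest of a range up to 0.601 over the alternatives. Ephb4 and Ephb6, named after their values were seen, overlapped between groups, with 149, 30 and 49 counts against 151, 113 and 189 for Ephb4 and 195, 17 and 29 against 180, 73 and 101 for Ephb6. In both, replicate 1 of the Col6a1+ CAFs lay within the range of the Col6a1- CAFs or above it. Efnb1, a ligand of these receptors, had 345, 255 and 246 counts against 236, 287 and 273, a log2 fold change of 0.08 (95% interval -0.59 to 0.74).

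Of the 10 epithelial markers, 7 were called lower in Col6a1+ CAFs, as Efna1 was. Epcam had 1074, 884 and 615 counts in Col6a1+ CAFs and 3107, 4129 and 3730 in Col6a1- CAFs (log2 fold change -2.12), and Cdh1, the epithelial cadherin, had 2999, 2344 and 2580 against 10493, 15452 and 11963 (-2.25). The 10 log2 fold changes were all below 0, with a median of -2.04, although Krt20 overlapped between groups, with 438, 453 and 1094 counts against 544, 1198 and 606. The part of epithelial RNA in the ephrin and Eph differences was not tested.

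**Figure D5:**
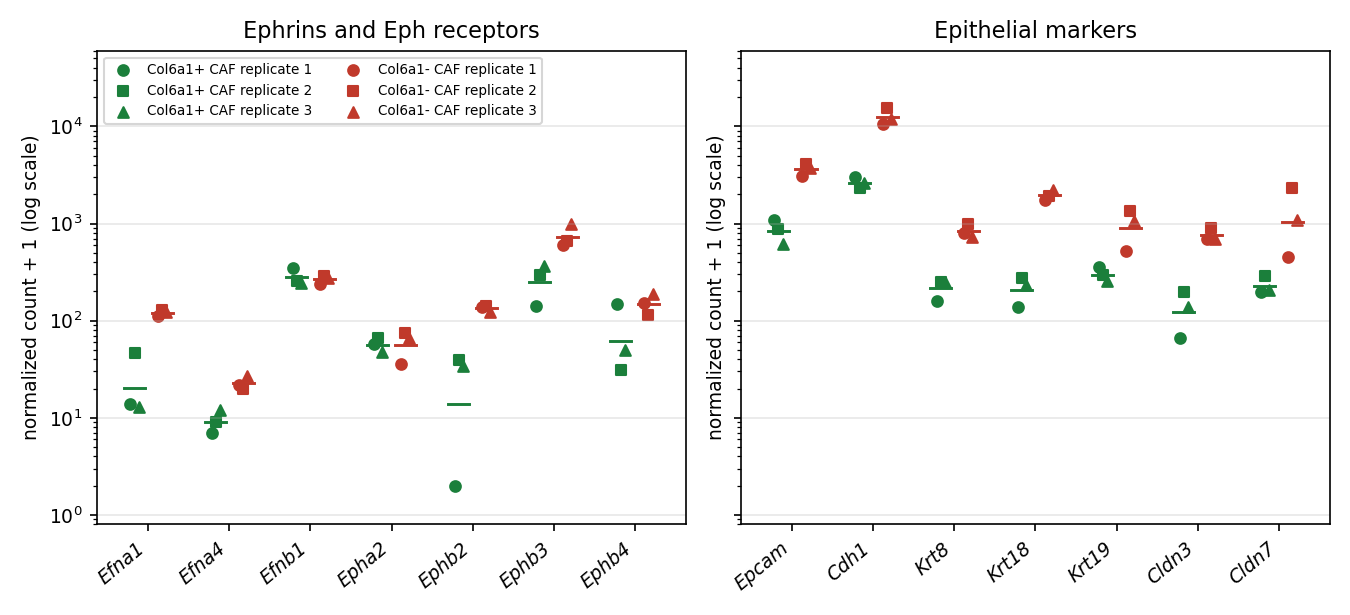
Normalized count plus 1 (log scale) in each library for 7 ephrin and Eph genes (left panel) and 7 epithelial markers (right panel); points are libraries, green for Col6a1+ and red for Col6a1- CAFs, and bars are the means of the log values. Efna1, Efna4, Ephb2 and Ephb3 are lower in every Col6a1+ library, as are all 7 markers, while Efnb1 and Epha2 overlap. The 7 markers shown are those of the 10 that were called lower, and Krt20, Vil1 and Lgals4, which were not called, are not shown.

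A list of 96 pathway partners of these receptors (co-receptors and other ligands, and signalling and cytoskeletal proteins inside the cell) was examined beside them. Of the 93 tested, 5 were called higher and 5 lower in Col6a1+ CAFs. That is 10.8%, against 4.62% of all genes tested. Of the genes whose mean reached 10 normalized counts, 8.82% were called. The 10.8% includes partners below that mean, so these last shares are of unlike sets. The median log2 fold change of the partners was -0.11, and with the block none was called. Those called higher included Chn1 (log2 fold change 2.68 ± 0.62, SE), which encodes a Rac-inactivating chimaerin that acts below EphA4, and Enah (2.04 ± 0.38), an actin regulator known from netrin and Slit responses. Itgb1 (integrin β1, 1.88 ± 0.38) and Farp1 (a protein linked to plexin A and class 6 semaphorin signalling, 1.85 ± 0.43) were higher as well. Chn2, the other chimaerin, was lower, at -2.87 ± 0.64, and so were Shb, an adaptor (-2.10 ± 0.44), and Pak1, a kinase activated by Rac (-2.03 ± 0.46).

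The chimaerins thus moved in opposite directions. Chn1 had 74, 104 and 185 counts in Col6a1+ CAFs and 22, 7 and 29 in Col6a1- CAFs, with a limma adjusted p of 0.0366 (0.11 with the block). Chn2 had 39, 9 and 11 against 205, 104 and 86, with a limma adjusted p of 0.0303 (0.0712 with the block). Flrt2, a membrane ligand of Unc5 receptors, was at 0 in every Col6a1+ library and had 28, 10 and 10 counts in Col6a1- CAFs, at least 5.33-fold lower against 3 counts per library (limma adjusted p = 0.0366, with the block 0.105). Without replicate 1 of the Col6a1- CAFs that bound was 3.33-fold. In Col6a1+ CAFs the Unc5 receptors Unc5b and Unc5c were higher and Flrt2 was at 0, which did not extend to its family. Flrt3, named after its values were seen, had 41, 123 and 41 counts against 36, 126 and 77. Its log2 fold change was -0.25 (limma adjusted p = 0.835). Flrt1, named likewise, had 0, 1 and 3 counts against 1, 0 and 0.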

How the data were processed

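The authors mapped the reads of QuantSeq 3′ libraries, sequenced on an Ion Proton, to mm10 with TopHat2 and then Bowtie2. For the count table and the differential expression they name GenomicRanges and DESeq, used through metaseqR, and they do not detail the normalization. Their deposited table holds, for each gene and library, the log2 of the normalized count plus 1, and the normalized counts recovered from it were whole in 100% of values (tolerance 1e-06). The table's other 6 columns of per-sample values, its GC content and its columns of the authors' own fold changes and p-values were not used. Whole normalized counts carry no gene length, so levels are compared only between libraries, and the mean over libraries serves between genes only to choose which are named.

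Groups and replicate numbers came from the labels. A 2-group model was fitted with limma 3.58.1 (eBayes with a mean-variance trend, prior degrees of freedom 6.48, residual 4) in R 4.3.3 to the 26402 genes whose normalized counts summed to at least 1, two-sided, with Benjamini-Hochberg adjustment. Tested on simulated data of 25155 genes with 200 changed 8-fold, it recovered 180 (90.0%) and called 0 unchanged genes. An 8-fold change is larger than those of the called genes Sema5a, Sema6d, Plxnd1, Unc5c, Unc5b, Sema4c and Efna1. It is smaller than those of Sema5b, Ntn4, Robo4 and Sema3e. Recovery of smaller changes was not tested, so the simulation gives no error rate or power for the calls made here. Depth estimated from the steps between low values was 2568312 to 4522547 reads in 4 libraries, and was not resolved in Col6a1+ replicate 1 and Col6a1- replicate 2. Counts of 0 and bounds cover counting error only.

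Deviations from group means over the 13515 genes whose mean reached 10 correlated at 0.245, 0.125 and 0.144 between libraries with the same replicate number. Between libraries with different numbers they correlated at -0.245 to 0.15. The 0.15, between Col6a1+ replicate 2 and Col6a1- replicate 3, was above the 0.125 and 0.144 of replicates 2 and 3. These correlations therefore cannot decide whether the numbers are pairs, and the block takes them as pairs by label only. The genes and lists were chosen with earlier results of these data known. Genes named are those past the threshold, those whose libraries do not overlap with a mean of at least 10 in the higher group, the member with the highest mean in each role, and the 8 partners with the largest absolute log2 fold change among those called. Alternatives were library size scaling, limma-voom, other filters, a pseudocount of 0.1, the block and leaving out each library. Plots used Matplotlib 3.10.9 and tables pandas 2.3.3.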

Additional observations from a re-analysis of the deposited data

How the results depend on the processing

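Limits include the 3 libraries per group, the replicate block, replicate 1 of the Col6a1+ CAFs, the other cell types' markers and low counts. A gene at 0 allows up to 3 counts, and 5 guidance genes were at 0 throughout one group. Guidance genes called higher numbered 8, and 0 with no filter on low values and with the replicate block. Those called lower numbered 3, and 5 with limma-voom, 0 with no filter, 1 with a pseudocount of 0.1, 0 with the block and 7 with the block and a mean of at least 10. Pathway partners called higher numbered 5, and 8 among genes with a mean of at least 10, 0 with no filter, 3 with a pseudocount of 0.1, 0 with the block and 10 with the block and that mean. Partners called lower numbered 5, and 0 with no filter, 0 with the block and 8 with the block and that mean. Leaving out 1 library gave 0 to 5 guidance genes higher and 0 to 2 lower, and 0 to 1 partners higher and 0 to 6 lower. Of all genes tested in each fit, 4.62% were called in the main fit, 0.0% with the block and 13.7% with the block and that mean. The share was 5.94% with limma-voom and 3.42% without Col6a1+ replicate 1. For the other settings the share is not given here, so whether these changes were particular to the guidance genes or partners was not tested. The median log2 fold change of the guidance genes was -0.33, -0.99 with a pseudocount of 0.1, and -0.58 to -0.04 when 1 library was left out. With no filter, genes at 0 throughout enter the fit and the adjustment. The causes of the other changes were not tested.

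Of the 30 named guidance genes, 3 with fold changes near 0 changed sign. Epha2 was -0.03 with library size scaling, -0.10 without Col6a1+ replicate 2 and, over all libraries left out, -0.30 (Col6a1- replicate 1) to 0.22. Efnb1 was -0.08 without Col6a1+ replicate 1 and -0.01 without Col6a1- replicate 1, in a range of -0.08 to 0.17. Slit3 was 0.07 and 0.31 without Col6a1+ replicates 2 and 3, and 0.23 and 0.28 without Col6a1- replicates 1 and 2, in a range of -0.64 to 0.31. Of the 11 calls, 10 held with library size scaling and with limma-voom, 11 with a mean of at least 10 and 7 with a pseudocount of 0.1.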
